A study of Mus musculus with 4 samples.

Results

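Interferon-stimulated genes were examined in the sciatic nerve of a mouse model of transthyretin (TTR) amyloidosis. The set holds 37 genes picked by name as targets of interferon, and all 37 were found among the 50593 genes of the expression table by matching the gene symbol. The table compares HSF V30M with HSF WT mice at 6 months of age, with 2 mice of each group in the sample labels, strain 129S1/SvImJ, and the methods give n = 4. HSF WT mice have the heterozygous deletion of Hsf1, the gene of heat shock factor 1, and no TTR transgene. HSF V30M mice have the same Hsf1 deletion, lack the mouse Ttr gene, and in addition carry human TTR with the V30M substitution. A comparison of the groups therefore takes in the transgene and the Ttr deletion together. For every gene the table gives 1 value a group, the FPKM (fragments per kilobase of transcript, scaled to library depth), so that the spread between mice is unknown and no test between mice was possible.

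Interferons are secreted proteins that cells release upon sensing viral or displaced nucleic acid. Type I interferons (alpha and beta) act through the receptor IFNAR and activate a complex with STAT2 and IRF9 that binds the interferon-stimulated response element (ISRE) in DNA, whereas interferon gamma acts through IFNGR on the gamma-activated site (GAS). The induced genes encode sensors of foreign RNA, enzymes that degrade or block it, membrane proteins that restrain virus entry or release, and GTPases that attack the compartments of intracellular pathogens. In nerve, Schwann cells, endothelium and resident macrophages can all respond to interferon.

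The gene altered by design in both groups and the gene deleted in 1 of them were inspected first. Hsf1, of which both groups keep 1 copy, stood at 7.94 FPKM in mice labelled HSF V30M against 14.95 in those labelled HSF WT. Mouse Ttr stood at 6.10 in the former, in which it is deleted by design, and was listed at 0 in the latter, where 3 fragments would have given 0.1715. Taken as the mouse transcript, Ttr goes against the labels, and whether reads of the human transgene were counted at the mouse gene was not tested. Reads were aligned to the mouse genome, and transgene reads and exchanged labels cannot be told apart from these values. Every direction below therefore rests on the labels. HSF V30M and HSF WT stand for the groups so labelled, a pair of values gives HSF V30M against HSF WT in that order, and higher or lower is said of HSF V30M. The steps between low FPKM values placed the depth of the 2 libraries labelled HSF V30M at 12700000 and 10900000 fragments, and of the 2 labelled HSF WT at 10400000 and 7730000, on the scale of Cuffdiff. Cell type markers differed between the groups as well. The summed FPKM of 8 B cell markers was 4.05 against 32.2, with all 8 above 0 in both groups, and that of 8 T cell markers was 3.69 against 16.2. The 8 neutrophil markers summed to 107 against 32.5, and the 8 macrophage markers to 282 against 380. All 8 Schwann cell markers were above a mean of 1 FPKM, and their median log2 ratio was 0.33. In whole nerve, fewer cells of a type and less RNA per cell cannot be told apart.

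Interferon-stimulated transcripts were readily detected in both groups. Of the 37 genes, 34 had a mean FPKM of at least 1 over the groups, and Mx1, Oas3 and Rsad2 were below it. Ifitm3 and Ifitm2, which encode membrane proteins that block virus entry, had the highest levels in both groups, at 166 and 150 FPKM in HSF V30M and 156 and 135 in HSF WT. Xaf1, an inducer of apoptosis that antagonises XIAP, followed in HSF V30M with 83.6, and Irf1, a transcription factor of the interferon gamma response, followed in HSF WT with 43.1. The remaining members stood at 29.1 or below in both groups. The set was thus at moderate level in nerve, with 3 transcripts standing well above the others in HSF V30M.

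**Figure D1:**
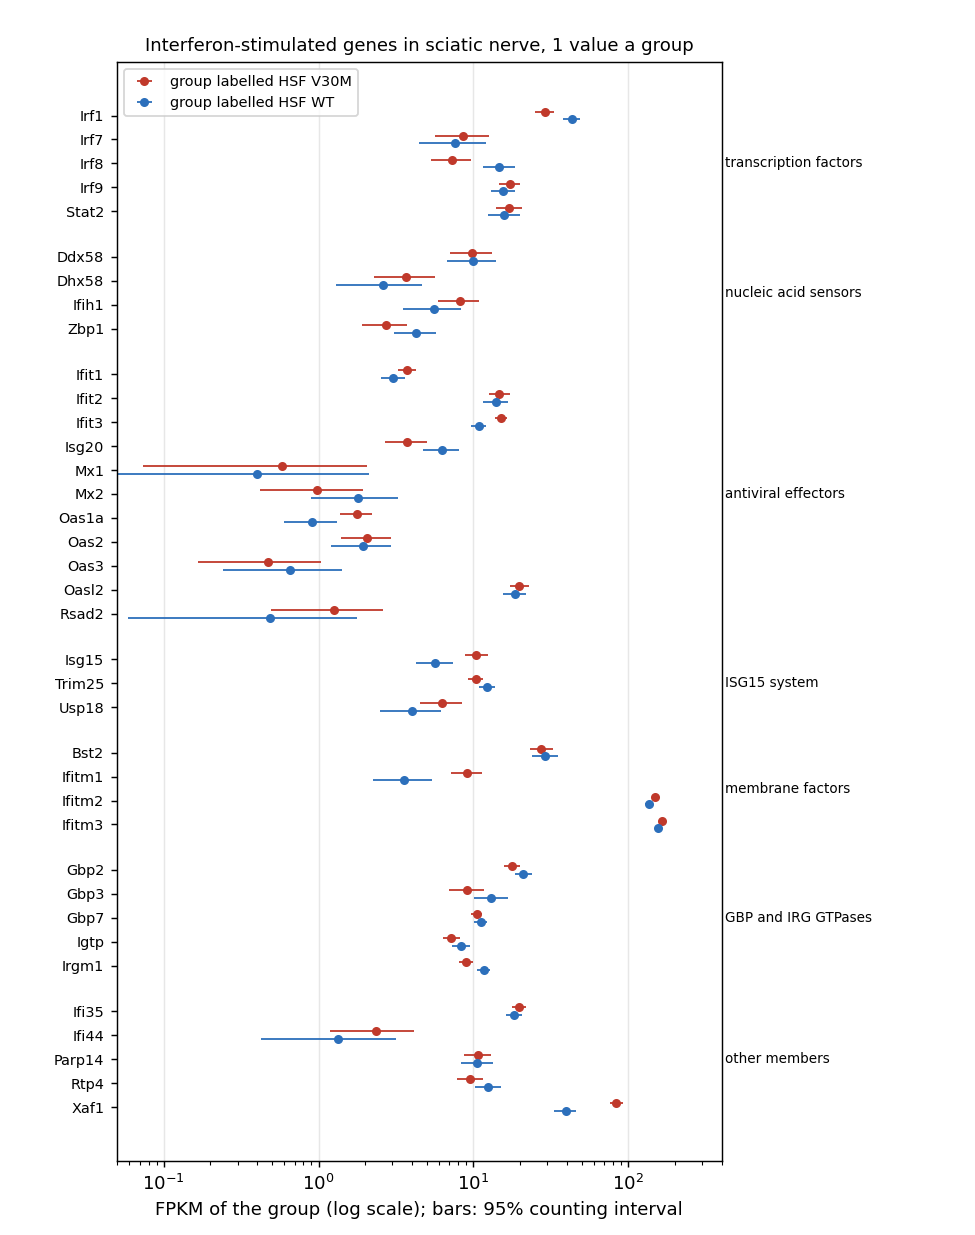
FPKM of the 37 interferon-stimulated genes (log axis), grouped by role, with 1 point for each group. Bars are 95% Poisson intervals on the fragments behind each value, taken with the shortest annotated transcript, and cover counting error only. Isg15, Ifitm1 and Xaf1 lie higher in HSF V30M and Irf8 lies lower, with bars that do not overlap, while the bars of most genes overlap.

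As a set, the members did not move in 1 direction. On the log2(FPKM + 1) scale, where changes of low genes appear smaller than they are, 20 of the 34 were higher in HSF V30M and 14 were lower, and their median log2 ratio was 0.08. The median over all 15620 genes with the same minimum was 0.00. Ratios of the members ranged from -0.92 for Irf8 to 1.14 for Ifitm1. Past a fold of 1.5 on this scale, 3 members (8.82%) were higher, Isg15, Ifitm1 and Xaf1, against 8.22% of all genes and 5.03% of the 12715 protein-coding genes. The 2 lower members past it (5.88%) were Irf8 and Isg20, against 8.44% of all genes and 5.32% of protein-coding genes. On this scale, the shares of members past the fold were therefore near those of all genes. The higher share lay above that of protein-coding genes, on 3 members.

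Counting error was considered gene by gene. A group FPKM was turned into fragments through the worth of 1 fragment and the shortest annotated transcript, and a gene was taken as apart when the 95% Poisson intervals of the groups did not overlap. By this rule 5 members (14.7%) were higher in HSF V30M, namely Isg15, Ifitm1, Xaf1, Ifit3 and Oas1a, beside 7.75% of 14593 genes and 8.01% of protein-coding genes. Lower in HSF V30M were Irf1, Irf8 and Irgm1, 3 members (8.82%), beside 7.46% and 7.06%. Isg20 passed the fold, yet its intervals overlapped. With the longest transcript instead, 9 members (26.5%) were higher, beside 23.4% of all genes and 25.4% of protein-coding genes, and 10 (29.4%) were lower, beside 22.8% and 24.1%. These counts therefore depend on which transcript the fragments came from. None of these intervals covers the difference between mice.

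**Figure D2:**
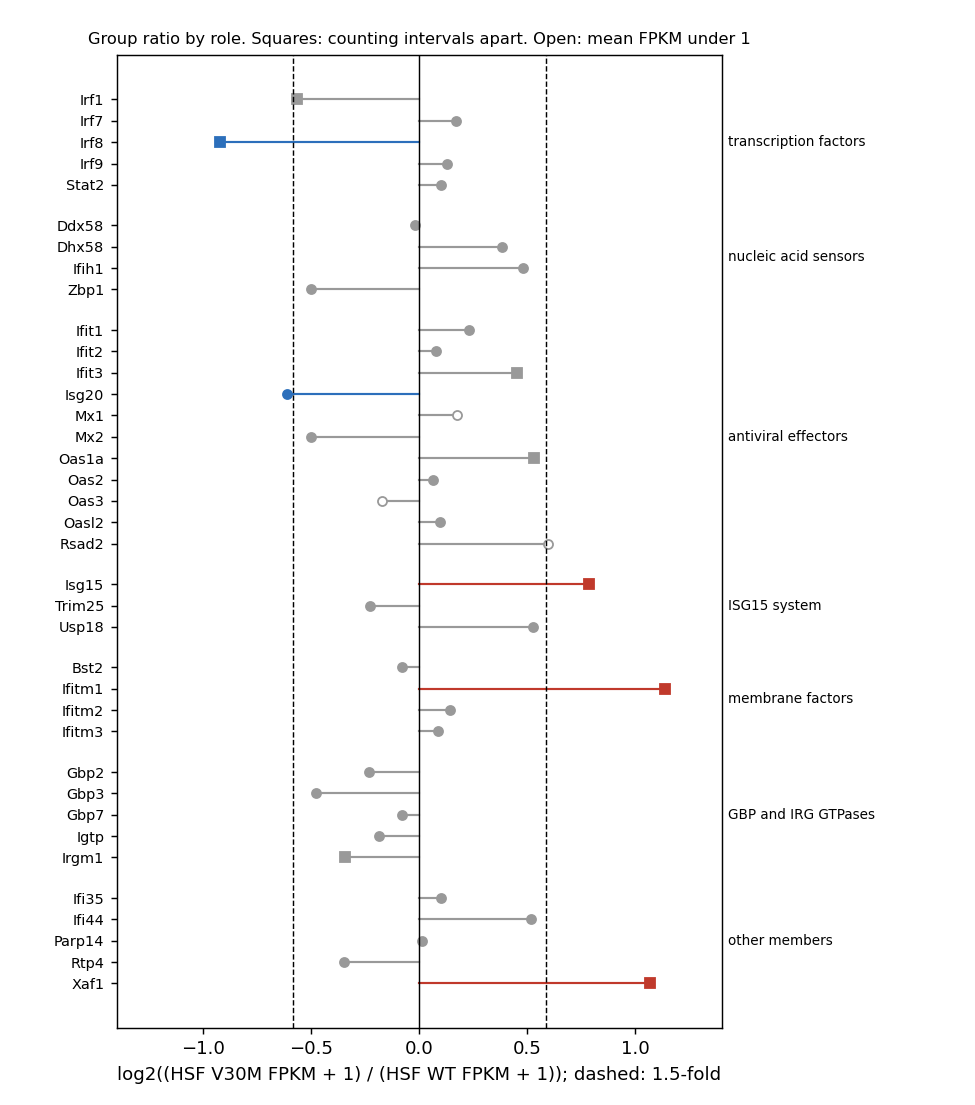
Log2 ratio (HSF V30M to HSF WT) on the FPKM + 1 scale for each member, ordered by role. Dashed lines mark 1.5-fold, coloured points lie past it, squares mark members whose counting intervals are apart, and open points have a mean FPKM under 1. Isg15, Ifitm1 and Xaf1 lie to the right of the lines, Irf8 and Isg20 to the left, and all 5 GTPases lie left of 0.

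**Figure D3:**
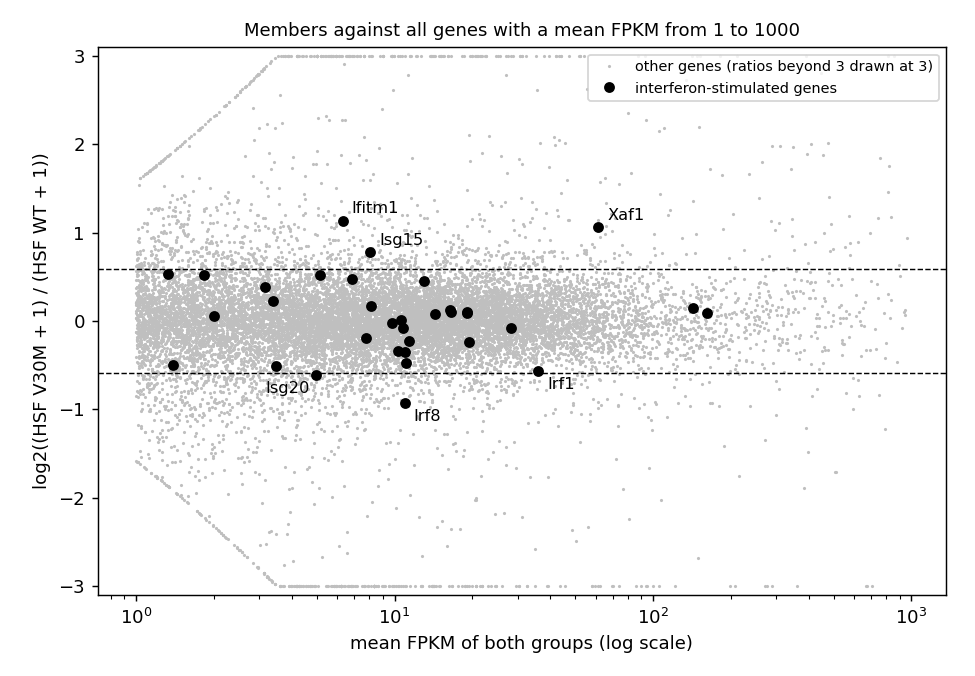
Log2 ratio against mean FPKM (log axis) for all genes within the range of the axis (grey, ratios beyond 3 drawn at 3) and for the 34 members with a mean of at least 1 (black). Members spread around 0 within the cloud of other genes, and Xaf1 has a ratio of 1.07 at a mean FPKM of 61.5.

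The promoter sequences of the members were read for the elements through which interferons act. RefSeq promoters on GRCm38.p6 matched 29 of the 37 members. Of these, 14 (48.3%) held the ISRE core, GAAA, any 2 bases and GAAA on either strand, within 250 bases before the start, compared with 3.46% of 27025 genes. The GAS, TTCNNNGAA, which reads the same on both strands, was found in 8 of the 29 (27.6%), compared with 8.13% of all genes. Among members with a mean FPKM of at least 1, the 12 with an ISRE core were split into 6 higher and 6 lower in HSF V30M, with a median log2 ratio of 0.01, and the 15 without it into 10 and 5, with a median of 0.09. The 8 members with a GAS were 2 higher and 6 lower, with a median of -0.13, whereas the 19 without it were 14 higher and 5 lower, with a median of 0.13. Only exact letters in any RefSeq promoter of a gene were counted, so that genes with near matches are among those without an element. These are descriptions of letters in a window, and the direction of a gene was not tested against them.

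Among the transcription factors, Irf1 and Irf8 were lower in HSF V30M and the factors of the type I response were nearly level. Irf8 (ENSMUSG00000041515, GRCm38 chromosome 8, 120736358 to 120756694, as are all gene positions here on GRCm38) drives the development of macrophages and dendritic cells and is also expressed by B cells. It stood at 7.25 FPKM against 14.7, with intervals of 5.34 to 9.62 and 11.5 to 18.4, a 2.02-fold lower FPKM with no pseudocount added. Its locus in the table holds 210 genes, and Irf8 is the only past-fold member on a shared locus. Irf1 (ENSMUSG00000018899, chromosome 11, 53770014 to 53778374) stood at 28.8 against 43.1, with intervals of 25.1 to 32.9 and 37.8 to 48.9. Its log2 ratio of -0.57 lay just short of the fold. Stat2 and Irf9, of the type I complex, had log2 ratios of 0.10 and 0.13, and Irf7, the amplifier of interferon alpha production, 0.17, with overlapping intervals in all 3.

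Beside the lower Irf8 and Irf1, the summed B cell, T cell and macrophage markers given above were also lower in HSF V30M. Of these, 5 of 5 B cell, 4 of 4 T cell and 5 of 8 macrophage markers that reached the minimum lay lower. Cd68, of phagocyte lysosomes, had 15.5 and 30.9 FPKM, while Adgre1, the macrophage surface marker F4/80, had 7.98 and 7.70 and Csf1r, the receptor of macrophage growth factor, 31.2 and 36.0. The part of these cells in the levels of Irf8 and Irf1 was not tested.

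The 160 bases before the start of Irf1 (chr11:53769854-53770013, plus strand), Irf8 (chr8:120736198-120736357, plus strand) and Isg20 (chr7:78913264-78913423, plus strand) are shown because these lower members hold a GAS there, in capitals. Irf8 has a further GAS upstream of the stretch, from -171 to -163. Irf1, Irf8 and Isg20 each have more than 1 annotated start, and no GAS was found before the others. Of the other members with a GAS, Bst2, Gbp7 and Igtp were lower, with log2 ratios of -0.08, -0.08 and -0.19. Ifit2 and Oas1a also hold a GAS and were higher, at 0.08 and 0.53.
Irf1: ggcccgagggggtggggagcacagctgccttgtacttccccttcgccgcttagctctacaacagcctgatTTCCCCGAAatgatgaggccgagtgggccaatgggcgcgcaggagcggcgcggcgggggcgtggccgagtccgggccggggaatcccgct
Irf8: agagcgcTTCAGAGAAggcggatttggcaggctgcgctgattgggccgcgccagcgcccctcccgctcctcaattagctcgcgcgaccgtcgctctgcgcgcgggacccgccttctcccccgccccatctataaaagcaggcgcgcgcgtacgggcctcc
Isg20: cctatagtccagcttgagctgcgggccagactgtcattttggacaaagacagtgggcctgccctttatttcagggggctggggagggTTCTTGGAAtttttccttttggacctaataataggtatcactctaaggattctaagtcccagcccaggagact

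The cytosolic sensors did not share a direction. Ifih1, which encodes the sensor MDA5 of long double-stranded RNA, had 8.14 FPKM against 5.55, and Dhx58, encoding its regulator LGP2, had 3.69 against 2.60. Both were higher in HSF V30M, by log2 ratios of 0.48 and 0.38, with intervals that overlapped for the shortest transcript and were apart for the longest. Ddx58, the sensor RIG-I, was level at 9.75 and 9.90. Zbp1, a sensor of Z-form nucleic acid that triggers cell death, was lower at 2.71 and 4.26, with overlapping intervals for the shortest transcript. No sensor passed the fold.

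Of the 11 antiviral effectors, 8 had a mean FPKM of at least 1, with 6 higher and 2 lower. Ifit3 (ENSMUSG00000074896, chromosome 19, 34583531 to 34588731), of the family that binds viral RNA lacking host cap marks, had 15.1 FPKM against 10.8, about 548 fragments against 296. Its intervals, 13.9 to 16.4 and 9.60 to 12.1, were apart, and its log2 ratio of 0.45 stayed under the fold. However, 51.2% of the 50-base words of its transcript also occur in the neighbouring copy Ifit3b, which had 6.75 and 5.39. Ifit1 had 3.74 and 3.04, and Ifit2 14.7 and 13.9, both with overlapping intervals. Of the 3 Ifit genes, Ifit3 alone had intervals apart, and none passed the fold.

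The synthetases of 2′-5′ oligoadenylate, the messenger that activates the RNA-degrading enzyme RNase L, were low except for Oasl2. Oas1a (ENSMUSG00000052776, chromosome 5, 120896256 to 120907521) had 1.76 FPKM against 0.906, about 70 fragments against 27, with intervals of 1.37 to 2.23 and 0.598 to 1.32. Of its 50-base words, 57.6% are shared with other genes, mainly Oas1g and Oas1b, so that the split between these copies is uncertain. Oas2 had 2.06 and 1.93, Oas3 0.470 and 0.658, and Oasl2, a related OAS-like gene, 19.8 and 18.5. Apart from Oas1a, no Oas gene had intervals apart.

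Rsad2, the gene of viperin, which makes a chain-terminating nucleotide, had 1.25 FPKM against 0.488, and its mean was below the minimum. Mx1, a GTPase that blocks influenza virus in the nucleus and is defective in many laboratory strains, had 0.580 and 0.401. Mx2, annotated as a polymorphic pseudogene in this reference strain, had 0.980 and 1.80. Isg20 (ENSMUSG00000039236, chromosome 7, 78913424 to 78920396), an exonuclease of single-stranded RNA, was lower past the fold, with 3.73 against 6.24, a log2 ratio of -0.61. Its intervals of 2.71 to 5.02 and 4.70 to 8.12 overlapped, on about 44 fragments against 55, and were apart only when the longest transcript was taken.

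The 160 bases before the start of Ifit3 (chr19:34583369-34583528, plus strand) and Oas1a (chr5:120907526-120907685, minus strand) are given because both were higher with intervals apart and hold the ISRE core, in capitals, where overlapping cores run together. The stretch of Oas1a also holds a GAS, from -98 to -90, which is not in capitals. Of the other higher members with intervals apart, Isg15 holds ISRE cores. Ifitm1 and Xaf1 hold neither element as exact letters.
Ifit3: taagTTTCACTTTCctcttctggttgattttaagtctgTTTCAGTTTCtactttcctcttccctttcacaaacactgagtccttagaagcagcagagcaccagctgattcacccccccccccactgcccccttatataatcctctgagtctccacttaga
Oas1a: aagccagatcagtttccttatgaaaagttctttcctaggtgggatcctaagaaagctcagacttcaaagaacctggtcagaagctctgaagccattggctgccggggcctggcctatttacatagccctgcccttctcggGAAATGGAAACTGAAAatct

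In the ISG15 system, Isg15 itself differed most. Isg15 (ENSMUSG00000035692, chromosome 4, 156199424 to 156200818) encodes a ubiquitin-like protein that is attached to newly made proteins during the interferon response. It stood at 10.45 FPKM against 5.64, about 136 fragments against 56 on its single annotated transcript. The intervals were 8.77 to 12.4 and 4.26 to 7.33, and the level was 1.85-fold higher. Usp18, the protease that removes ISG15 and dampens IFNAR signalling, had 6.26 against 4.04, a log2 ratio of 0.53 that did not pass the fold. Trim25, the ubiquitin ligase that activates RIG-I, was lower at 10.35 against 12.3. The intervals of Usp18 and Trim25 overlapped for the shortest transcript and were apart for the longest. The promoter of Isg15 (chr4:156200819-156200978, minus strand) is shown because it held 3 overlapping ISRE cores from -78 to -57, the most of any member, in capitals.
Isg15: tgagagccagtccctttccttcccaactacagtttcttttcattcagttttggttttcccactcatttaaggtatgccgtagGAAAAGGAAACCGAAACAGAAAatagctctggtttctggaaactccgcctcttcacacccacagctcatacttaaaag

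Of the membrane restriction factors, Ifitm1 was set apart from its family. Ifitm1 (ENSMUSG00000025491, chromosome 7, 140967221 to 140969825) had 9.05 FPKM against 3.57, with intervals of 7.14 to 11.3 and 2.26 to 5.37, a 2.53-fold higher level. This was the largest ratio of the 34 members, on about 76 to 145 fragments against 23 to 43. Ifitm2 and Ifitm3, its neighbours on chromosome 7 with far higher levels, had log2 ratios of 0.14 and 0.09 and overlapping intervals. Ifitm2 shares 48.5% of its 50-base words with other annotated genes, whereas for Ifitm1 this share was 5.02%. Bst2, encoding tetherin, which holds budding virus at the cell surface, was level at 27.5 and 29.1. Beside the higher Ifitm1, 6 of 7 neutrophil markers with a mean of at least 1 were higher in HSF V30M, among them S100a9, an abundant calcium-binding protein of these cells, at 59.0 and 13.8. Csf3r, the neutrophil growth factor receptor, was lower at 2.63 and 6.05. The part of neutrophils in the level of Ifitm1 was not tested.

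All 5 guanylate-binding proteins (GBP) and immunity-related GTPases (IRG) were lower in HSF V30M, and none passed the fold. These proteins are strongly induced by interferon gamma and gather on the vacuoles of intracellular pathogens. Irgm1 (ENSMUSG00000046879, chromosome 11, 48861968 to 48871683), the regulator that keeps other IRG proteins inactive on host membranes, had 8.99 FPKM against 11.7. Its intervals of 8.13 to 9.92 and 10.5 to 12.9 were apart, on at least 390 fragments in each group. Gbp3 had 9.08 and 13.0, a log2 ratio of -0.48 and the lowest of the 5. Gbp2 had 17.7 against 20.98, Igtp 7.22 against 8.36, and Gbp7 10.5 against 11.1. Intervals of these 4 overlapped for the shortest transcript, and those of Gbp2 and Gbp3 were apart for the longest. The median log2 ratio of the 5 genes was -0.23. The Gbp genes are neighbours on chromosome 3 and related in sequence, so that these 3 are not separate observations. All 5 genes had a promoter with an ISRE core, and the promoters of Gbp7 and Igtp held a GAS as well. The window before a further annotated start of Gbp3 held no ISRE core. The stretches before Gbp3 (chr3:142559884-142560043, plus strand) and Igtp (chr11:58199396-58199555, plus strand) are shown for comparison with that of Isg15, with ISRE cores in capitals and the GAS of Igtp, from -45 to -37, in lower case.
Gbp3: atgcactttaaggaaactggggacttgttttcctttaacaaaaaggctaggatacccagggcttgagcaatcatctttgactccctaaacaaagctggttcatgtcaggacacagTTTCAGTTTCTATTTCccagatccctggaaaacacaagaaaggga
Igtp: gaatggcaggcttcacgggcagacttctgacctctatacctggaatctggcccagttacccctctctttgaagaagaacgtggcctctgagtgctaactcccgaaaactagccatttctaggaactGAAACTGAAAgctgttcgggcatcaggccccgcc

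Among the other members, Xaf1 (ENSMUSG00000040483, chromosome 11, 72301629 to 72313733) had the largest difference in FPKM. It stood at 83.6 against 39.4, with intervals of 75.8 to 92.0 and 33.3 to 46.2, a 2.12-fold higher level on at least 422 and 150 fragments. Of its 50-base words, 1.61% are shared with other genes. Neither the ISRE core nor the GAS was found as exact letters in its promoter window, and near matches were not counted. Ifi44, a cytoplasmic protein that limits virus replication, had 2.34 against 1.33, with overlapping intervals for the shortest transcript. Ifi35, a leucine zipper protein, had 19.7 and 18.3, and Parp14, an enzyme that adds ADP-ribose to proteins, 10.7 and 10.6. Rtp4, a chaperone of receptors at the cell surface, was lower at 9.57 and 12.5. Of the 6 endothelial markers, 3 were higher and 3 lower, with a median log2 ratio of 0.12. Vwf and Cldn5, which are blood clotting and junction genes, were higher past the fold, at 52.5 and 27.3 and at 100.2 and 57.9, and Pecam1, an adhesion molecule, was lower at 44.9 and 56.5. Their relation to Xaf1 was not tested.

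Interferons themselves, except Ifnk, were near or below detection. Of 10 ligand genes, 8 were listed at 0 in both groups, including Ifng and the 4 interferon alpha genes of the list. A count of 0 allows up to 3 fragments, or 0.154 to 0.718 FPKM against 0.203 to 0.9497, depending on the gene. Ifnb1 was listed at 0 against 0.118, under the 0.307 that 3 fragments would give. Ifnk, the interferon of keratinocytes, was the only ligand with a mean of at least 1, at 0.730 and 1.44 with overlapping intervals. Both Ifnk values lay above the 0.211 and 0.279 that 3 fragments would give. For the ligands other than Ifnk, a difference was thus not detectable at this depth.

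The receptors and their kinases were expressed and close to level. Ifnar1 had 25.1 FPKM against 25.6, Ifnar2 32.6 and 36.7, Ifngr1 40.1 and 49.1, and Ifngr2 11.9 and 9.86. Jak1, the kinase shared by both receptors, had 28.2 and 34.2, and Tyk2, the partner of Jak1 at IFNAR, 8.83 and 8.94. None of the 11 genes of this list with a mean of at least 1 passed the fold or had intervals apart, with a median log2 ratio of -0.03. For this and the other lists, intervals were taken with the shortest transcript only, where they are widest. Of the sensing adaptors and kinases, 1 of 11 (9.09%, beside 8.44% of all genes) was lower past the fold, Tlr3, the endosomal receptor of double-stranded RNA, at 1.88 and 3.87 with overlapping intervals. Tlr9, the endosomal receptor of unmethylated CpG DNA, did not pass the fold at 1.25 and 1.86 but had intervals apart, and the median of the list was -0.12. Mavs, the adaptor of RIG-I and MDA5, had 12.2 and 11.7.

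Of a further list of 51 interferon-stimulated genes outside the set, 50 were in the table and 44 had a mean of at least 1. Of the 44, 17 were higher and 27 lower, with a median log2 ratio of -0.10. Past the fold, 8 (18.2%) were lower and 1 (2.27%) was higher, beside 8.44% and 8.22% of all genes and 5.32% and 5.03% of protein-coding genes. Among these 8, Tgtp1, Oas1c and Ifi202b were under 1 FPKM in HSF V30M and reached the minimum only through HSF WT. The share of 18.2% therefore rests in part on genes that passed the minimum through 1 group. Gbp4, of the same family as the 3 Gbp members, was lower at 4.22 FPKM against 11.2 with intervals apart. Tgtp1 and Tgtp2, IRG genes that are near-identical copies and so not separate observations, had 0.790 against 2.73 and 1.14 against 3.44, with overlapping intervals. Ifi203 and Ifi205, of the DNA-binding p200 family, had 4.66 against 7.82 and 2.55 against 4.36. Ifi202b of the same family had 0.0300, under the 0.0854 that 3 fragments would give, against 2.49. The other lower genes were Oasl1, at 1.32 and 2.65, and Oas1c, at 0.470 and 1.61. The higher gene was Tor3a, a torsin family ATPase, at 9.60 and 5.39 with overlapping intervals. The list holds 8 GBP and IRG genes that reached the minimum, 6 of them lower and 2 higher, the latter being Ifi47, at 9.25 against 8.19, and Gbp5, at 5.40 against 5.27. Their median log2 ratio was -0.39, and this grouping was made after the values were seen.

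**Figure D4:**
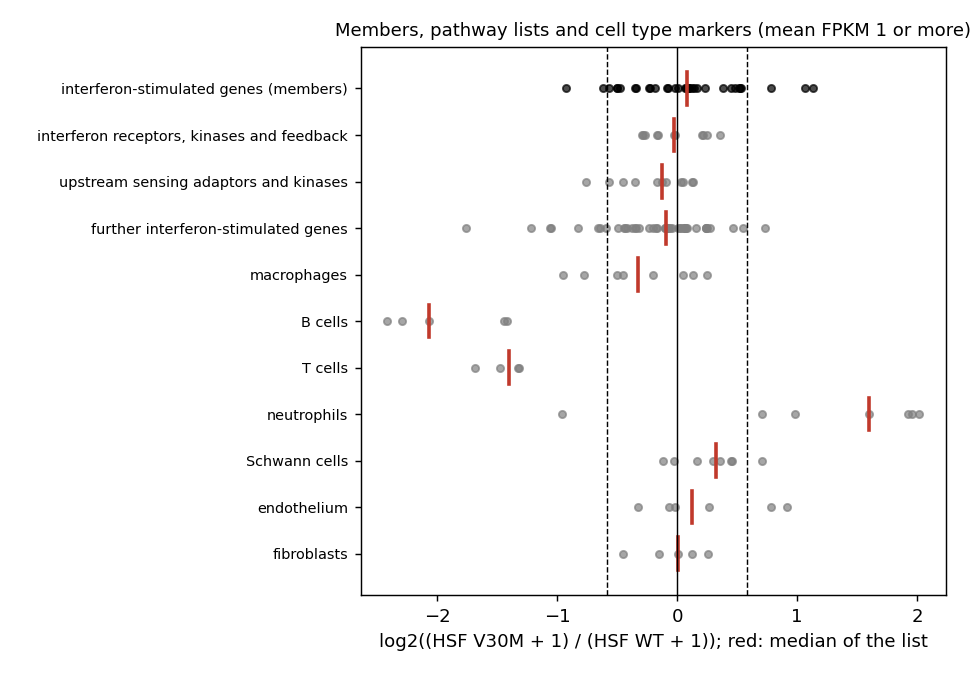
Log2 ratio (HSF V30M to HSF WT) on the FPKM + 1 scale for the members, 3 pathway lists and 7 cell type marker lists, with 1 point a gene with a mean FPKM of at least 1 and a red bar at the median. The members lie around 0 with a median of 0.08 and the receptors at -0.03, while B cell and T cell markers lie below -1 and 6 of 7 neutrophil markers above 0.5.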

How the data were processed

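Sciatic nerve RNA of 4 mice, 2 a group per the labels, was sequenced with Ion Torrent libraries. The authors had reads aligned to GRCm38 and compared with Cuffdiff, and the submitters' processing notes also name STAR and Cufflinks, while annotation and options are not given in the sources used here. The deposited FPKM is 1 Cuffdiff value a group over its libraries, with decimal commas, rounded to 2 decimals in HSF V30M. The columns of log2 fold change, test statistic, p-value, q-value and significance hold the authors' own comparison and were not used, nor were genes Cuffdiff marked as having too many alignments (23).

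Here the log2 ratio, HSF V30M to HSF WT, was computed with a pseudocount of 1 where the mean FPKM reached 1, and called past a fold of 1.5. No p-value was computed, since 1 value a group allows no test between mice. The worth of 1 fragment was read from 10924 single-transcript genes alone at their locus, after subtracting 200 bases from transcript length. Of 1580 low HSF WT values, 99.9% lay within 2% of a sum of whole fragments of the 2 libraries, and HSF V30M values, with 2 decimals, could not be checked so closely. Exact 95% Poisson intervals used the mean worth of the 2 libraries and transcripts of at least 300 bases of GENCODE M21, which holds 50346 of the identifiers and lacks 224. Intervals and limits at 0 (3 fragments) cover counting error only. Both steps were tested on simulated data. Shared sequence was counted as 50-base words found in transcripts of other genes, either strand. Whether the library kit kept strand is not given in the sources used here.

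Named genes are all members, list genes past the fold, interferon ligands and receptors, Hsf1 and Ttr, and, chosen after their values were seen, Mavs, Jak1, Tyk2, Ifit3b, Tlr9, Ifi47, Gbp5 and the marker genes named. Members and lists were chosen with earlier results of these data known. The alternatives were pseudocounts of 0.1 and 0, a minimum mean of 5 or none, a fold of 2, median-of-ratios scaling, members alone at their locus, and the longest transcript. Computation used scipy 1.17.1, pandas 2.3.3, numpy 2.4.6, matplotlib 3.10.9 and Python 3.11.15.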

Additional observations from a re-analysis of the deposited data

How the results depend on the processing

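No paired analysis was possible because no value per mouse is given, and for the same reason no mouse was left out. The count of members past the fold was 3 higher and 2 lower. It was 6 higher and 4 lower with a pseudocount of 0.1 and also with none, where Oas1a, Usp18 and Ifi44 joined the higher members and Zbp1 and Mx2 the lower. Over all genes the shares past the fold also went up, to 10.9% higher and 10.8% lower with 0.1 and to 11.3% and 11.2% with none. Among protein-coding genes they were 7.2% higher and 7.26% lower with 0.1, and 7.52% and 7.53% with none. The 6 higher and 4 lower of 34 members lay above these protein-coding shares, on small counts. Lower members numbered 1 with a minimum mean FPKM of 5, where Isg20 is left out, 1 without members whose locus holds another gene, where Irf8 is left out, and 0 with a fold over 2, where Ifitm1 and Xaf1 stay higher. Without a minimum, Rsad2 joined the higher members. Shares over all genes are not given for these settings of minimum, locus and fold. Their counts therefore cannot be set against a background. Members with counting intervals apart went from 5 higher and 3 lower to 9 and 10 with the highest number of fragments, since longer transcripts give more fragments for the same FPKM. The median log2 ratio of the members stayed between 0.08 and 0.09. No sign of a single ratio could turn under another pseudocount or minimum, so these say nothing on the stability of directions. Depth limits Mx1, Oas3, Rsad2 and the interferon ligands.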
